A study of Homo sapiens with 9 samples.

Results

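p53 target genes were followed in IMR90 ER:RAS cells, an inducible model of oncogene-induced senescence (OIS). Cells were left uninduced, or were induced with or without a short hairpin RNA against ARID1B. The study reports that depleting ARID1B blunted OIS in such cells, with more proliferation and less senescence-associated β-galactosidase staining. The 33 genes were chosen by name as genes that p53 is known to switch on, and 31 of them were measured by a probe set that carried exactly 1 gene symbol, out of 18417 genes measured in this way. The expression of BTG2 and FDXR was not analysed here, since neither had such a probe set. IMR90 is a human lung fibroblast line (spelled IRM90 in the labels), and in ER:RAS an oncogenic form of RAS is joined to the ligand-binding domain of the oestrogen receptor, so that it acts once 4-hydroxytamoxifen (4OHT) is added. ARID1B is a component of SWI/SNF, a chromatin remodelling complex that moves nucleosomes, and it binds DNA.

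Total RNA was hybridised to 9 Affymetrix whole-transcript arrays in 3 groups of 3. The groups were ER:RAS cells with the ARID1B hairpin and 4OHT (shARID1B+4OHT), ER:RAS cells with an empty vector and 4OHT (vector+4OHT, the senescent cells) and ER:RAS cells with an empty vector and no 4OHT (vector-4OHT, the non-senescent cells). All carried ER:RAS, the dose was 100 nM, and the labels give day 6 after 4OHT and growth for 7 days. The number and identity of the hairpins are not in the labels, and there was no group with a control hairpin, with 4OHT but no ER:RAS, or with the ARID1B hairpin but no 4OHT. The study's legend calls the replicates biological, while the labels do not name separate cultures, so p-values reflect the spread among these samples alone. In a culture, a change in RNA per cell and a change in the number of cells that make it cannot be told apart.

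p53 is a transcription factor that is stabilised after DNA damage and oncogene activation. It binds as a tetramer to a pair of decamers with the consensus RRRCWWGYYY, which may abut or be split by a short spacer. In it R is A or G, W is A or T and Y is C or T. p53 switches on genes for cell cycle arrest, cell death, DNA repair and redox control. MDM2 and MDM4 hold p53 in check, and MDM2 is itself a p53 target, which closes a feedback loop. In OIS the arrest is held largely by p53, through the CDK inhibitor p21 (CDKN1A), and by p16INK4a, a product of CDKN2A.

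To show what such sites look like in these genes, promoter windows from 250 bases before to 50 after the start were taken from RefSeq (GRCh38.p14), which held windows for 29 of the 33 genes. Windows for TP53INP1, PHLDA3, GADD45A and ASCC3 were not used here. A p53 consensus was counted where the core C and G of both decamers were intact, the spacer was 0 to 13 bases and at most 2 letters differed. The consensus reads the same on both strands. It was found in 4 of the 29 genes (13.8%), MDM2, AEN, DDB2 and FDXR, against 3.62% of 27305 genes in the table. The windows of MDM2, DDB2 and AEN are printed 5′ to 3′ because each holds such a site, marked by the capitals. The MDM2 window is at chr12:68808767-68809066 (plus strand), among 4 windows of the gene, and its site ends 75 bases before the start with 2 mismatches. The DDB2 window is at chr11:47214724-47215023 (plus strand), and its site matched with 0 mismatches around a spacer of 1 base (lower case) and starts 5 bases after the start. The AEN window is at chr15:88621090-88621389 (plus strand), with a site that ends 15 bases before the start and has 2 mismatches.
MDM2: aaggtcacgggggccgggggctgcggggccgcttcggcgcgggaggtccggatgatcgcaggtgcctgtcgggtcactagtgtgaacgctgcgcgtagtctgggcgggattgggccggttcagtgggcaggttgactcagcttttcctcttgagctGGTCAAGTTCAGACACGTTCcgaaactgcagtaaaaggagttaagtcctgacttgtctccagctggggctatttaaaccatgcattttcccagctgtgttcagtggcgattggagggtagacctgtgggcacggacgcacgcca
DDB2: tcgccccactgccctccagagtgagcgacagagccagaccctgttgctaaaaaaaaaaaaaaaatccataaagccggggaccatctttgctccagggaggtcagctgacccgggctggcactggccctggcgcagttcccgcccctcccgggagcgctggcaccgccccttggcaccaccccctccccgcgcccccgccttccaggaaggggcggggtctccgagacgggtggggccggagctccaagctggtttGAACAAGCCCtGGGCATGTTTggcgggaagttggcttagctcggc
AEN: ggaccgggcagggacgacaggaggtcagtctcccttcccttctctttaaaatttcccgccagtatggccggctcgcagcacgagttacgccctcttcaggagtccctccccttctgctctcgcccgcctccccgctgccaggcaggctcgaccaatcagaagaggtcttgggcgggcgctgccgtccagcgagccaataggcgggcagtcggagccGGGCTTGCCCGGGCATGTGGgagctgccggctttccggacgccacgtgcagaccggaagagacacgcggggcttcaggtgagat
With at most 3 mismatches, 10 of the 29 genes (34.5%) had a site, against 15.3% of all genes in the table. These included 20-base sites of GDF15 at chr19:18386186-18386205 and of PMAIP1 at chr18:59899811-59899830, both on the plus strand with 3 mismatches, shown because both genes changed in every comparison.
GDF15: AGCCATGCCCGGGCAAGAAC
PMAIP1: GAGCGTGTCCGGGCAGGTCG
No site was found at that limit in the PLK3 window, which says only that these letters are not in this window. The GC box GGGCGG, counted on both strands, was in 89.7% of the 29 genes and in 48.3% of all genes in the table. TGANTCA (N is any base), the AP-1 motif, also counted on both strands, was in 10.3% and 9.37%. The MDM2 window printed above is one of those that hold it. The p53 site of that window does not overlap it. A match is a description of sequence and no measure of binding.

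All 31 genes had group means above 6.75, the median of all log2 values, in all 3 groups. Median values of the arrays ran between 6.70 and 6.79. ARID1B itself was lower in shARID1B+4OHT cells than in vector+4OHT cells, with a log2 difference of -0.73 (adjusted p = 0.000179) and a fold of 0.601. All 10 fibroblast markers were above 6.75 in every group, and their mean per array lay at 11.25 to 11.30 in shARID1B+4OHT, 11.16 to 11.26 in vector+4OHT and 11.51 to 11.65 in vector-4OHT cells. Of the 7 epithelial, 7 leukocyte and 8 endothelial markers measured, 3, 1 and 2 were above it in all groups. Mean values of the epithelial markers per array were 7.00 to 7.05 in shARID1B+4OHT, 6.83 to 6.96 in vector+4OHT and 7.04 to 7.07 in vector-4OHT cells, with EPCAM and CDH1 below 6.75 in every group. In shARID1B+4OHT against vector+4OHT cells, 4 of the 10 fibroblast markers were called (DCN 0.65 and PDGFRA 0.28 higher, FAP -0.41 and COL1A1 -0.21 lower), 2 of the 7 epithelial markers (KRT19 0.86 and CLDN4 0.38) and 2 of the 8 endothelial markers (TEK 0.45 and PECAM1 -0.28). These shares were 40%, 28.6% and 25%, against 15.7% of all genes. In vector+4OHT against vector-4OHT cells, 8 of the 10 fibroblast markers were called lower (80%, against 17.6% of all genes), led by DCN (-1.60). KRT19 (-1.10), KRT8 (-0.25) and TEK (-0.30) were also called lower, while PECAM1 was called higher (0.58). In shARID1B+4OHT against vector-4OHT cells, 6 fibroblast markers were called lower (60%, against 15.9% of all genes), and CLDN4 (0.50) and PECAM1 (0.31) higher. PECAM1 was read from a probe set with a mean of 5.99, below 6.75. Its other probe set, dimmer still (mean 3.15), was called in no comparison. No leukocyte marker was called in any comparison. The part of these changes in the results was not tested.

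Genes were called at a limma adjusted p under 0.05, with Benjamini-Hochberg adjustment over all 18417 genes within a comparison. The shares of all genes include dim genes, whereas all 31 targets had group means above the median of all values. All-gene calls are therefore also given for a fit without dim genes, those with fewer than 3 arrays above that median. The part of brightness in the shares was not tested. The 3 comparisons share arrays, since each group enters 2 of them, so their values are given side by side and are not independent. Differences are on the log2 scale, as the first-named group minus the second.

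First, the effect of ARID1B knockdown in cells given 4OHT was examined. In shARID1B+4OHT against vector+4OHT cells, 15.7% of all genes were called, and 3196 of 11945 without dim genes. Of the 31 p53 targets, 13 were called there (41.9%). Of these, 8 were lower (25.8%, against 6.09% of all genes). They were GDF15 (-0.56), CYFIP2 (-0.52), PLK3 (-0.39), TP53INP1 (-0.38), GADD45A (-0.26), XPC (-0.24), PMAIP1 (-0.22) and POLH (-0.19). The 5 that were higher (16.1%, against 9.63% of all genes) were PLK2 (0.41), MDM4 (0.35), TP53I3 (0.31), DDB2 (0.18) and CCNG1 (0.15). The median difference over the 31 was -0.02, as it was over all genes (-0.02), with 13 of the 31 above 0 and 18 below. The arrays of the 2 groups did not overlap for 18 of the 31 (58.1%), against 32.5% of all genes.

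Next, senescent cells were compared with non-senescent cells. In vector+4OHT against vector-4OHT cells, 32.6% of all genes were called, and 5858 of 11945 without dim genes. Of the 31 targets, 16 were called there (51.6%). The 12 that were higher (38.7%, against 14.9% of all genes) were led by the secreted factor GDF15 (2.34), the kinase PLK3 (1.30), the membrane protein NINJ1 (0.81), the death gene PMAIP1 (0.65) and TRIAP1 (0.48). The other 7, ASCC3, APAF1, STEAP3, TIGAR, SPATA18, AEN and DDB2, rose by 0.21 to 0.31. The 4 that were lower (12.9%, against 17.6% of all genes) were MDM4 (-0.75), GADD45A (-0.47), PERP (-0.32) and TP53I3 (-0.23). The median over the 31 was 0.15, against -0.01 over all genes, and the arrays did not overlap for 19 (61.3%), against 40.1% of all genes.

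Finally, shARID1B+4OHT cells were set against vector-4OHT cells, to see what still set them apart from cells without 4OHT. Here 31.5% of all genes were called, and 5552 of 11945 without dim genes. Of the 31 targets, 20 were called (64.5%), 14 of them higher (45.2%, against 15.6%) and 6 lower (19.4%, against 15.9%). With each array's median subtracted, the all-gene calls were 62.3% higher ones in place of 49.4%, and 15 of the 31 targets were called higher and 5 lower. GDF15 (1.78), PLK3 (0.92) and NINJ1 (0.80) remained the 3 largest rises. The 6 lower ones were GADD45A (-0.73), MDM4 (-0.39), TP53INP1 (-0.31), CYFIP2 (-0.30), BBC3 (-0.27) and PERP (-0.22). The median was 0.14, against -0.03 over all genes, and the arrays did not overlap for 24 (77.4%), against 45.9% of all genes.

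**Figure D1:**
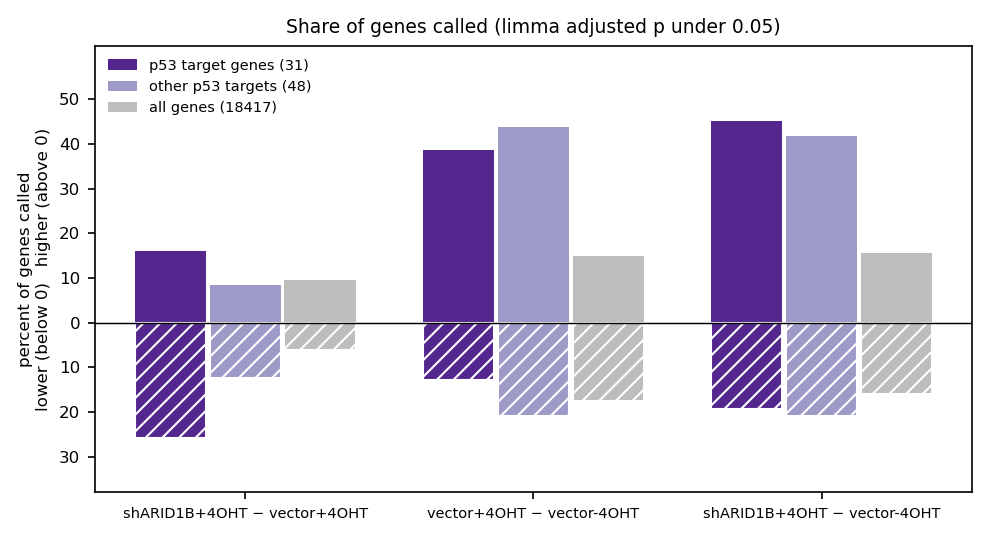
Share of genes called higher (bars above 0) or lower (hatched bars below 0), in percent, in each of the 3 comparisons, for the 31 p53 target genes, 48 other p53 targets and all 18417 genes. In shARID1B+4OHT against vector+4OHT cells more of the 31 were lower (25.8%) than higher (16.1%), whereas in vector+4OHT against vector-4OHT cells more were higher (38.7%) than lower (12.9%).

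GDF15, PLK3 and PMAIP1, 3 of the 31 genes, were higher in senescence and lower with the ARID1B hairpin. They were still higher in shARID1B+4OHT than in vector-4OHT cells. Of all 18417 genes, 263 held this pattern. For 8 of the 12 genes that were higher in senescence (APAF1, AEN, TRIAP1, ASCC3, TIGAR, SPATA18, STEAP3 and NINJ1), no change with the hairpin was called (66.7%), a share near that of all genes higher in senescence, 1830 of 2747 (66.6%). The share that was lower with the hairpin was 3 of 12 (25%), against 587 of 2747 (21.4%). A missed call does not show that they were alike, and TRIAP1 (-0.19, adjusted p = 0.0536) and AEN (-0.20, adjusted p = 0.0858) lay close to the threshold. DDB2 was higher in both steps, as were 330 of all 18417 genes. MDM4 and TP53I3 were lower in senescence and higher with the hairpin, as were 894 of all genes. GADD45A was lower in both, as were 198 of all genes. The 7 of the 31 genes called in no comparison were MDM2, BAX, PHLDA3, ZMAT3, RPS27L, SESN1 and SESN2. Of all 18417 genes, 10557 were called in none.

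**Figure D2:**
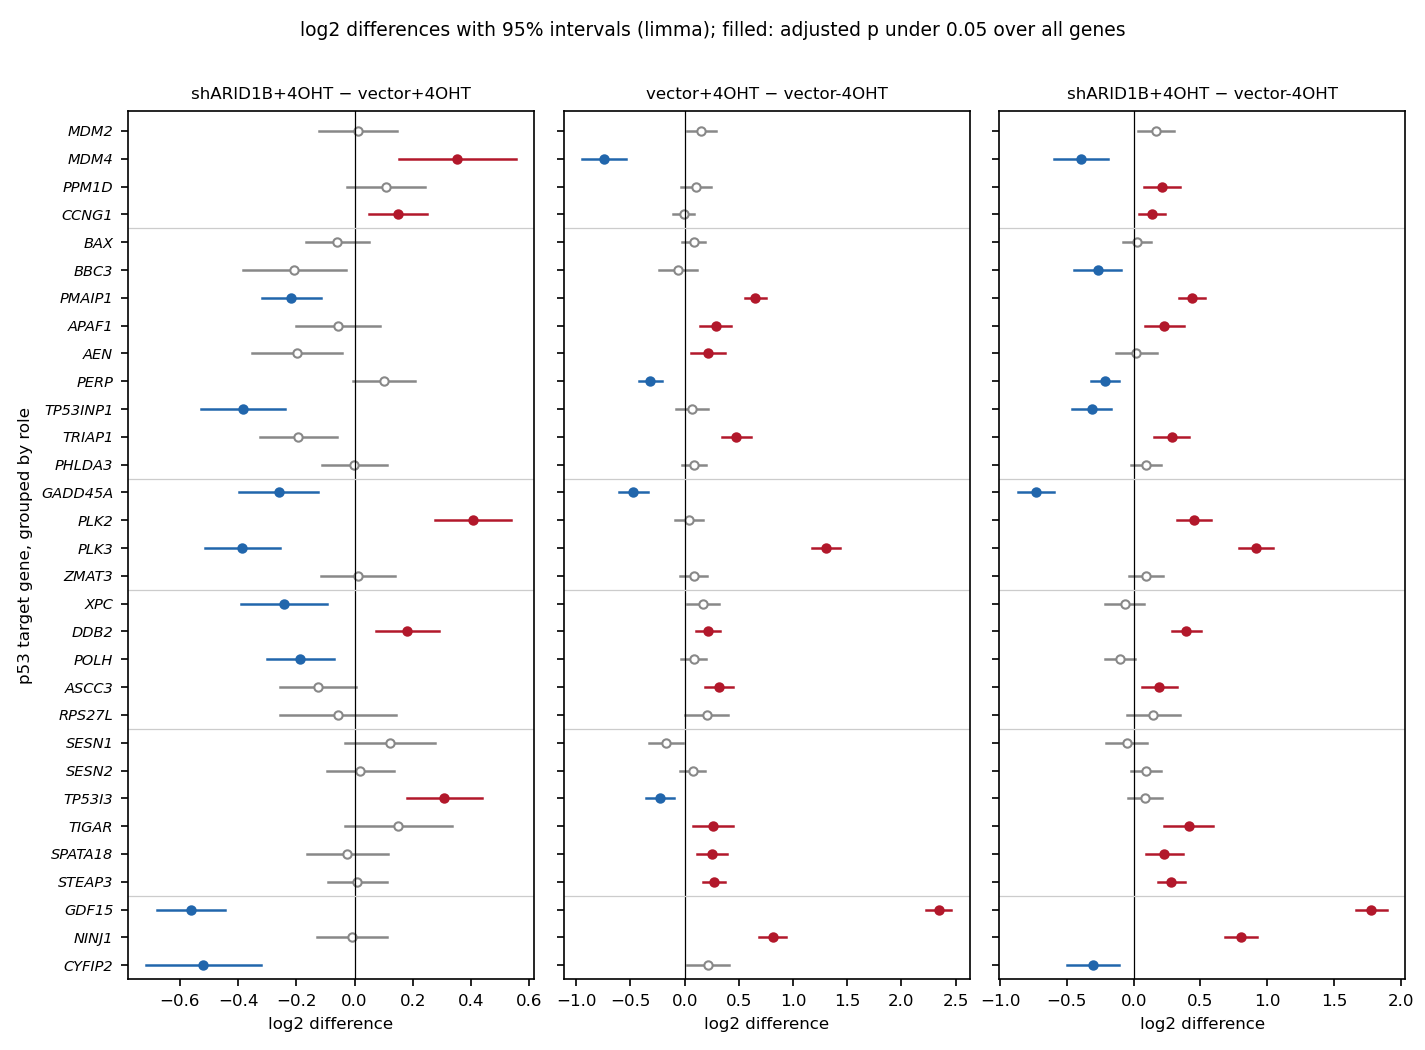
log2 differences of the 31 p53 target genes (points) with 95% intervals from limma (lines), in rows grouped by role, for shARID1B+4OHT minus vector+4OHT (left), vector+4OHT minus vector-4OHT (middle) and shARID1B+4OHT minus vector-4OHT (right). Filled points passed an adjusted p of 0.05 over all genes, red for higher and blue for lower, and each panel has its own scale. GDF15 has the largest difference in the middle and right panels (2.34 and 1.78) and the lowest in the left (-0.56).

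Among the genes that feed back on p53, MDM2 encodes the ubiquitin ligase that marks p53 for degradation. Its log2 values were 11.31, 11.34 and 11.42 in shARID1B+4OHT, 11.33, 11.31 and 11.39 in vector+4OHT and 11.30, 11.11 and 11.16 in vector-4OHT cells. The 4OHT arrays all lay above those without 4OHT, though the highest vector-4OHT array lay just below them, and the hairpin arrays overlapped the vector+4OHT arrays. The differences were 0.01 with the hairpin (95% interval -0.12 to 0.15, adjusted p = 0.924), 0.15 in senescence (0.02 to 0.29, adjusted p = 0.0806) and 0.16 for shARID1B+4OHT against vector-4OHT cells (0.03 to 0.30, adjusted p = 0.0623). Without vector-4OHT replicate 1 both of the last comparisons passed the threshold (adjusted p = 0.0199 and 0.0161). The difference between shARID1B+4OHT and vector-4OHT cells also passed with array medians subtracted (0.225, adjusted p = 0.0266) and with dim genes left out (adjusted p = 0.0407). That difference was thus called in 3 of the 15 alternatives tried, and the difference in senescence in 1 of the 15. MDM2 is the gene with the p53 site printed first above.

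MDM4, an inhibitor of p53 related to MDM2, read 7.63, 7.68 and 7.83 in shARID1B+4OHT, 7.16, 7.37 and 7.55 in vector+4OHT and 8.16, 8.11 and 8.06 in vector-4OHT cells. No 2 groups overlapped, and the hairpin arrays lay between the other groups. The difference was -0.75 in senescence (SE 0.091, adjusted p = 8.02e-05), a level 40.4% lower in vector+4OHT cells, and 0.35 with the hairpin (SE 0.091, adjusted p = 0.0241). The difference between shARID1B+4OHT and vector-4OHT cells was -0.39 (adjusted p = 0.00646). The vector+4OHT arrays spread over more of the scale than the others, and the call with the hairpin was lost without vector+4OHT replicate 1 or 2 and without shARID1B+4OHT replicate 2 or 3 (adjusted p of 0.0589 to 0.102).

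The remaining 2 feedback genes, PPM1D and CCNG1, differed by at most 0.21. PPM1D encodes the phosphatase WIP1, which removes activating phosphates from p53 and its upstream kinases, and it was higher in shARID1B+4OHT than in vector-4OHT cells (0.21, adjusted p = 0.0198). Leaving out vector-4OHT replicate 3 ended that call, as did leaving out shARID1B+4OHT replicate 1 or 2 (adjusted p of 0.057 to 0.0753). CCNG1, cyclin G1, was higher with the hairpin (0.15, adjusted p = 0.0482) and above vector-4OHT cells (0.14, adjusted p = 0.0378), and did not pass in senescence (-0.01, adjusted p = 0.906). Its call with the hairpin was lost when any of the 9 arrays was left out (adjusted p of 0.0501 to 0.16), and its call against vector-4OHT cells without vector-4OHT replicate 2 or 3 or any of the 3 shARID1B+4OHT arrays (adjusted p of 0.0804 to 0.123).

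**Figure D3:**
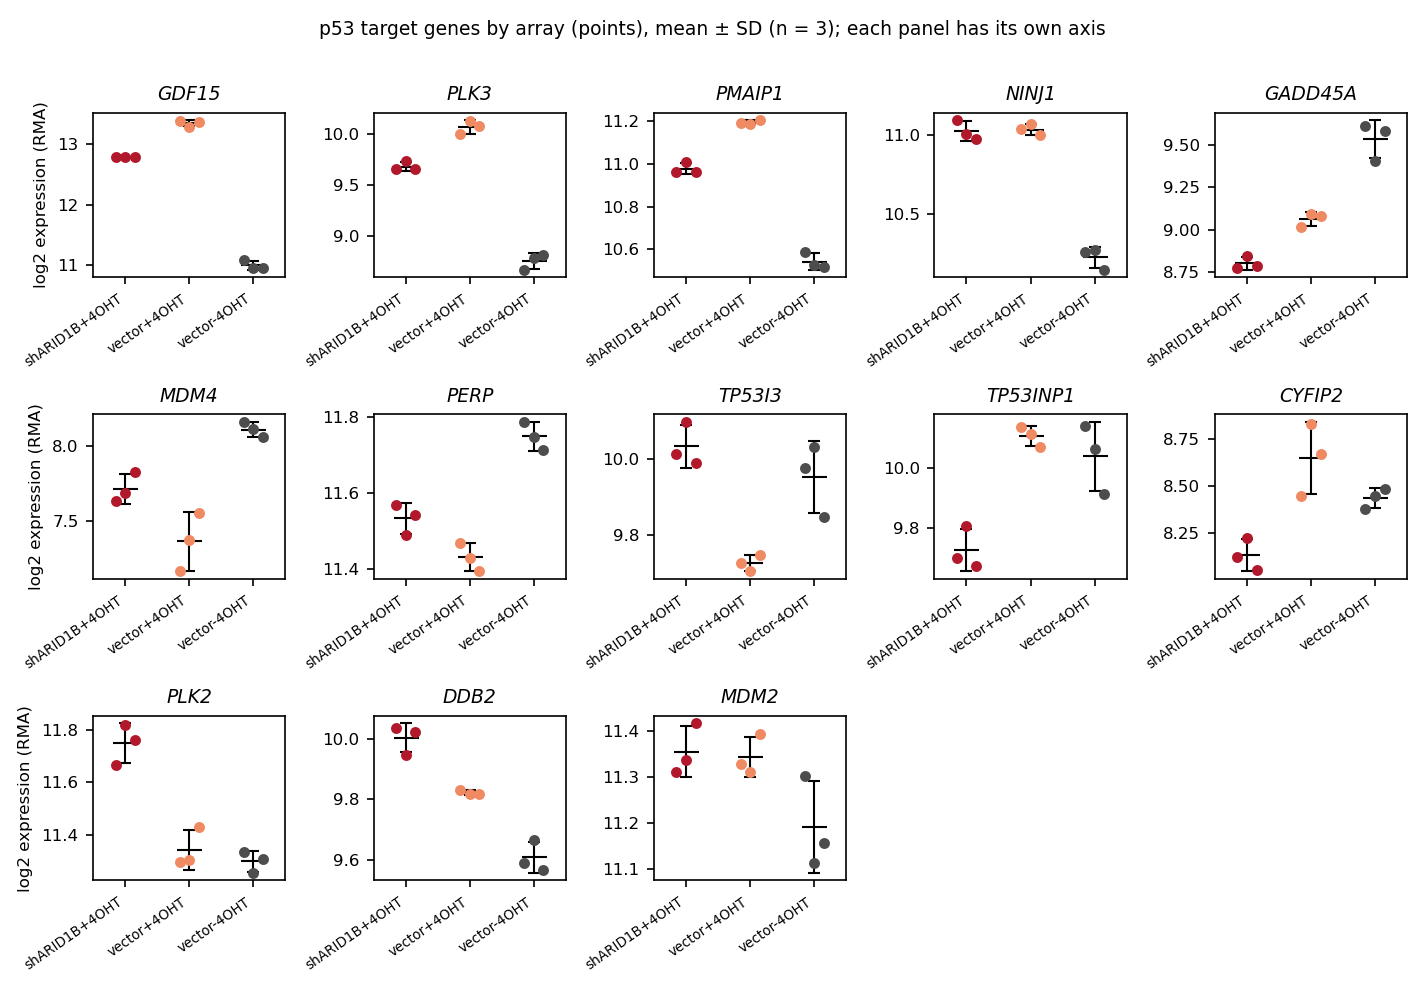
log2 expression (RMA) of 13 p53 target genes on each of the 9 arrays (points), with the mean and SD of each group of 3 (bars), for shARID1B+4OHT, vector+4OHT and vector-4OHT cells, each panel on its own axis. GDF15, PLK3 and PMAIP1 are highest in vector+4OHT, intermediate in shARID1B+4OHT and lowest in vector-4OHT cells, while the shARID1B+4OHT and vector+4OHT arrays of NINJ1 overlap.

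Of the 9 genes of cell death and survival, 4 were higher and 1 lower in senescence, and 2 were lower and 0 higher with the hairpin. These are 55.6% called in senescence, against 32.6% of all genes, and 22.2% with the hairpin, against 15.7%. PMAIP1 encodes NOXA, a BH3-only protein that inhibits the survival factor MCL1. It read 10.96, 11.01 and 10.96 in shARID1B+4OHT, 11.20, 11.19 and 11.21 in vector+4OHT and 10.59, 10.53 and 10.52 in vector-4OHT cells. The 3 groups were fully apart. Its level was 1.57-fold higher in vector+4OHT than in vector-4OHT cells (0.65, SE 0.045, adjusted p = 1.15e-06) and 14.0% lower in shARID1B+4OHT than in vector+4OHT cells (-0.22, SE 0.045, adjusted p = 0.00841). shARID1B+4OHT cells were still 1.35-fold above vector-4OHT cells (0.44, adjusted p = 2.51e-05).

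TP53INP1, a nuclear stress protein that helps p53 phosphorylation and autophagy, read 9.70, 9.81 and 9.67 in shARID1B+4OHT, 10.14, 10.12 and 10.07 in vector+4OHT and 10.14, 10.06 and 9.91 in vector-4OHT cells. The hairpin arrays lay below all the others, and the groups without the hairpin overlapped. It was 23.3% lower with the hairpin (-0.38, SE 0.065, adjusted p = 0.0028) and 19.6% lower than in vector-4OHT cells (-0.31, adjusted p = 0.0034), with 0.07 in senescence (adjusted p = 0.501). PERP, a desmosome-associated membrane protein, read 11.57, 11.49 and 11.54 in shARID1B+4OHT, 11.47, 11.43 and 11.40 in vector+4OHT and 11.79, 11.75 and 11.71 in vector-4OHT cells. The vector-4OHT arrays were the highest and no groups overlapped. PERP was 19.8% lower in senescence (-0.32, SE 0.048, adjusted p = 0.000393) and differed by 0.10 with the hairpin (adjusted p = 0.2).

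TRIAP1, APAF1, AEN, BBC3, BAX and PHLDA3 made up the rest of this group. In senescence TRIAP1, a mitochondrial survival protein, was higher by 0.48 (adjusted p = 0.000104), APAF1, the scaffold of the apoptosome, by 0.29 (adjusted p = 0.00541) and the nuclease AEN by 0.21 (adjusted p = 0.0353). The AEN call was lost without vector-4OHT replicate 1 or 2, vector+4OHT replicate 2 or 3 or shARID1B+4OHT replicate 3 (adjusted p of 0.0501 to 0.135). TRIAP1 was called lower with the hairpin without vector+4OHT replicate 1 (adjusted p = 0.0111) or with dim genes left out (adjusted p = 0.0321). BBC3, which encodes the BH3-only protein PUMA, was lower in shARID1B+4OHT than in vector-4OHT cells (-0.27, adjusted p = 0.0254). The highest shARID1B+4OHT array and the lowest vector-4OHT array held the same BBC3 value, 7.68. The BBC3 call was lost without vector-4OHT replicate 2 or 3 or shARID1B+4OHT replicate 2 or 3 (adjusted p of 0.0797 to 0.107), and without shARID1B+4OHT replicate 1 it was also called lower with the hairpin (adjusted p = 0.0354). Against vector-4OHT cells, the APAF1 rise of 0.23 (adjusted p = 0.0195) was lost without vector-4OHT replicate 2 or 3 or shARID1B+4OHT replicate 1 or 2 (adjusted p of 0.0584 to 0.0721). BAX, the pore-forming protein of the mitochondrial outer membrane, and PHLDA3, an inhibitor of AKT, passed in no comparison, with differences between -0.06 and 0.09.

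Among the genes of growth arrest and stress kinases, PLK3, a stress-activated polo-like kinase, read 9.65, 9.73 and 9.65 in shARID1B+4OHT, 9.99, 10.13 and 10.07 in vector+4OHT and 8.68, 8.79 and 8.82 in vector-4OHT cells. The groups were fully apart, with the hairpin arrays nearer to the vector+4OHT arrays than to the vector-4OHT arrays. PLK3 was 2.47-fold higher in senescence (1.30, SE 0.058, adjusted p = 4.04e-08) and 23.5% lower with the hairpin (-0.39, SE 0.058, adjusted p = 0.00128), and it stayed 1.89-fold above vector-4OHT cells (0.92, adjusted p = 5.33e-07). Its relative PLK2, a kinase of centriole duplication, read 11.67, 11.82 and 11.76 in shARID1B+4OHT, 11.29, 11.30 and 11.43 in vector+4OHT and 11.33, 11.25 and 11.31 in vector-4OHT cells. Only the hairpin arrays stood apart, above the others. PLK2 was 1.33-fold higher with the hairpin (0.41, SE 0.059, adjusted p = 0.000986) and 1.37-fold higher than in vector-4OHT cells (0.45, adjusted p = 0.00014), with 0.04 in senescence (adjusted p = 0.655). The pair of kinases thus had opposite signs with the hairpin.

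GADD45A, a stress protein that binds CDK1 and PCNA, read 8.78, 8.85 and 8.78 in shARID1B+4OHT, 9.01, 9.09 and 9.08 in vector+4OHT and 9.61, 9.41 and 9.58 in vector-4OHT cells. The groups were fully apart, lowest with the hairpin and highest without 4OHT. It was 27.9% lower in senescence (-0.47, SE 0.061, adjusted p = 0.000126), 16.5% lower with the hairpin (-0.26, SE 0.061, adjusted p = 0.0154) and 39.8% lower in shARID1B+4OHT than in vector-4OHT cells (-0.73, adjusted p = 4.81e-06). Its call with the hairpin was lost with array medians subtracted (adjusted p = 0.0523) and without vector+4OHT replicate 2 or shARID1B+4OHT replicate 1 or 3 (adjusted p of 0.0567 to 0.0595). ZMAT3, an RNA-binding protein, passed in no comparison (0.01, 0.08 and 0.09).

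Of the 5 DNA repair genes, DDB2, the damage sensor of nucleotide excision repair, holds the p53 site without a mismatch shown above. It read 10.04, 9.95 and 10.02 in shARID1B+4OHT, 9.83, 9.82 and 9.82 in vector+4OHT and 9.59, 9.66 and 9.57 in vector-4OHT cells. The groups did not overlap, and the hairpin arrays were the highest. DDB2 was 1.16-fold higher in senescence (0.21, SE 0.049, adjusted p = 0.00559) and 1.13-fold higher with the hairpin (0.18, SE 0.049, adjusted p = 0.0303). The second call was lost without vector+4OHT replicate 2 or 3 or shARID1B+4OHT replicate 1 or 3 (adjusted p of 0.0625 to 0.107), while the difference from vector-4OHT cells (0.39, adjusted p = 9.78e-05) was called in all 15 alternatives tried.

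XPC, which recognises damage together with DDB2 in the same repair pathway, differed in sign from DDB2 with the hairpin (-0.24, adjusted p = 0.0324), as did POLH, the polymerase that copies past UV lesions (-0.19, adjusted p = 0.0338). Both calls depended on single arrays. That of XPC was lost without vector+4OHT replicate 2 or 3 or any of the shARID1B+4OHT arrays (adjusted p of 0.0661 to 0.117), and that of POLH without the same arrays (adjusted p of 0.0783 to 0.113). With array medians subtracted neither passed (adjusted p = 0.102 for XPC and 0.129 for POLH). Without vector+4OHT replicate 1, XPC was called higher in senescence (adjusted p = 0.00744, against 0.0722 with all arrays), as it was with dim genes left out (adjusted p = 0.0465). ASCC3, a helicase of alkylation repair, was higher in senescence (0.31, adjusted p = 0.0017) and in shARID1B+4OHT against vector-4OHT cells (0.19, adjusted p = 0.0317), the second call being lost without vector-4OHT replicate 2 or any of the shARID1B+4OHT arrays (adjusted p of 0.0599 to 0.116). RPS27L, a ribosomal protein paralogue, passed in no comparison, and only without vector-4OHT replicate 1 was it called in senescence (0.20 with all arrays, adjusted p = 0.114, and adjusted p = 0.0282 without it).

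Among the 6 measured genes of redox control, metabolism and mitochondria, TP53I3 encodes a quinone oxidoreductase also known as PIG3. It read 10.01, 10.10 and 9.99 in shARID1B+4OHT, 9.73, 9.70 and 9.75 in vector+4OHT and 9.98, 10.03 and 9.85 in vector-4OHT cells. The vector+4OHT arrays lay below all the others, and the hairpin arrays overlapped the vector-4OHT arrays. TP53I3 was 14.5% lower in senescence (-0.23, SE 0.058, adjusted p = 0.0112) and 1.24-fold higher with the hairpin (0.31, SE 0.058, adjusted p = 0.00491), with 0.08 between shARID1B+4OHT and vector-4OHT cells (95% interval -0.05 to 0.21, adjusted p = 0.329). It was the only one of the 31 called in both of these steps and not between shARID1B+4OHT and vector-4OHT cells.

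STEAP3, a ferrireductase of iron uptake, was higher in senescence by 0.27 (adjusted p = 0.000744) and above vector-4OHT cells by 0.28 with the hairpin (adjusted p = 0.000636), with 0.01 between the 4OHT groups (95% interval -0.09 to 0.11). SPATA18, which acts in mitochondrial quality control, was higher in senescence by 0.25 (adjusted p = 0.00929) and by 0.23 in shARID1B+4OHT against vector-4OHT cells (adjusted p = 0.0172), where the call was lost without vector-4OHT replicate 1 or shARID1B+4OHT replicate 1 (adjusted p = 0.0605 and 0.06). TIGAR, a phosphatase that turns glucose use away from glycolysis, was higher in senescence by 0.26 (adjusted p = 0.0331) and in shARID1B+4OHT against vector-4OHT cells by 0.41 (adjusted p = 0.00295). Its call in senescence was lost without vector-4OHT replicate 2 or 3 or any of the vector+4OHT arrays (adjusted p of 0.0531 to 0.118). The stress-induced sestrins SESN1 and SESN2, which restrain mTORC1, passed in no comparison, with differences between -0.17 and 0.12.

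The largest changes were in the group of secreted, membrane and cytoskeletal products. GDF15, a secreted cytokine of the TGF-beta superfamily, read 12.78 on all 3 shARID1B+4OHT arrays, 13.38, 13.28 and 13.36 on the vector+4OHT arrays and 11.08, 10.95 and 10.96 on the vector-4OHT arrays. The groups were fully apart. GDF15 was 5.08-fold higher in senescence (2.34, SE 0.053, adjusted p = 1.77e-10), 32.3% lower with the hairpin (-0.56, SE 0.053, adjusted p = 6.72e-05) and still 3.44-fold above vector-4OHT cells with it (1.78, adjusted p = 1.53e-09). The 3 shARID1B+4OHT arrays held the same value to every deposited digit, as was so in at least 1 group for 721 of all genes and for no other of the 31. For PMAIP1 and PLK3, shARID1B+4OHT replicates 1 and 3 held equal values (10.963 and 9.65174). BBC3 held 7.67904 on vector+4OHT replicates 2 and 3, shARID1B+4OHT replicate 1 and vector-4OHT replicate 1. SESN1 (8.20742), AEN (9.80571) and CYFIP2 (8.44807) each held an equal value on arrays of different groups. Equal values lower the measured spread, and their part in the results was not tested.

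NINJ1, a membrane protein that ruptures the plasma membrane of dying cells, read 11.09, 11.01 and 10.97 in shARID1B+4OHT, 11.04, 11.07 and 11.00 in vector+4OHT and 10.25, 10.27 and 10.15 in vector-4OHT cells. Both 4OHT groups lay above the third and overlapped each other. It was 1.75-fold higher in senescence (0.81, SE 0.055, adjusted p = 9.78e-07), 1.74-fold higher in shARID1B+4OHT than in vector-4OHT cells (0.80, adjusted p = 9.96e-07) and differed by -0.01 with the hairpin (95% interval -0.13 to 0.11, adjusted p = 0.939). NINJ1 had the third largest rise in senescence of the 31 genes.

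CYFIP2, a subunit of the WAVE actin-regulating complex, read 8.12, 8.22 and 8.05 in shARID1B+4OHT, 8.45, 8.83 and 8.67 in vector+4OHT and 8.38, 8.45 and 8.49 in vector-4OHT cells. The hairpin arrays were the lowest, and the groups without the hairpin overlapped. CYFIP2 was 30.2% lower with the hairpin (-0.52, SE 0.089, adjusted p = 0.00284) and 19.0% lower than in vector-4OHT cells (-0.30, adjusted p = 0.0228), with 0.21 in senescence (adjusted p = 0.0939). Without vector+4OHT replicate 1 it was called higher in senescence (adjusted p = 0.00679). The difference from vector-4OHT cells was not called with array medians subtracted (adjusted p = 0.0888), nor without vector-4OHT replicate 2 or 3 or shARID1B+4OHT replicate 1 or 3 (adjusted p of 0.0608 to 0.0902).

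**Figure D4:**
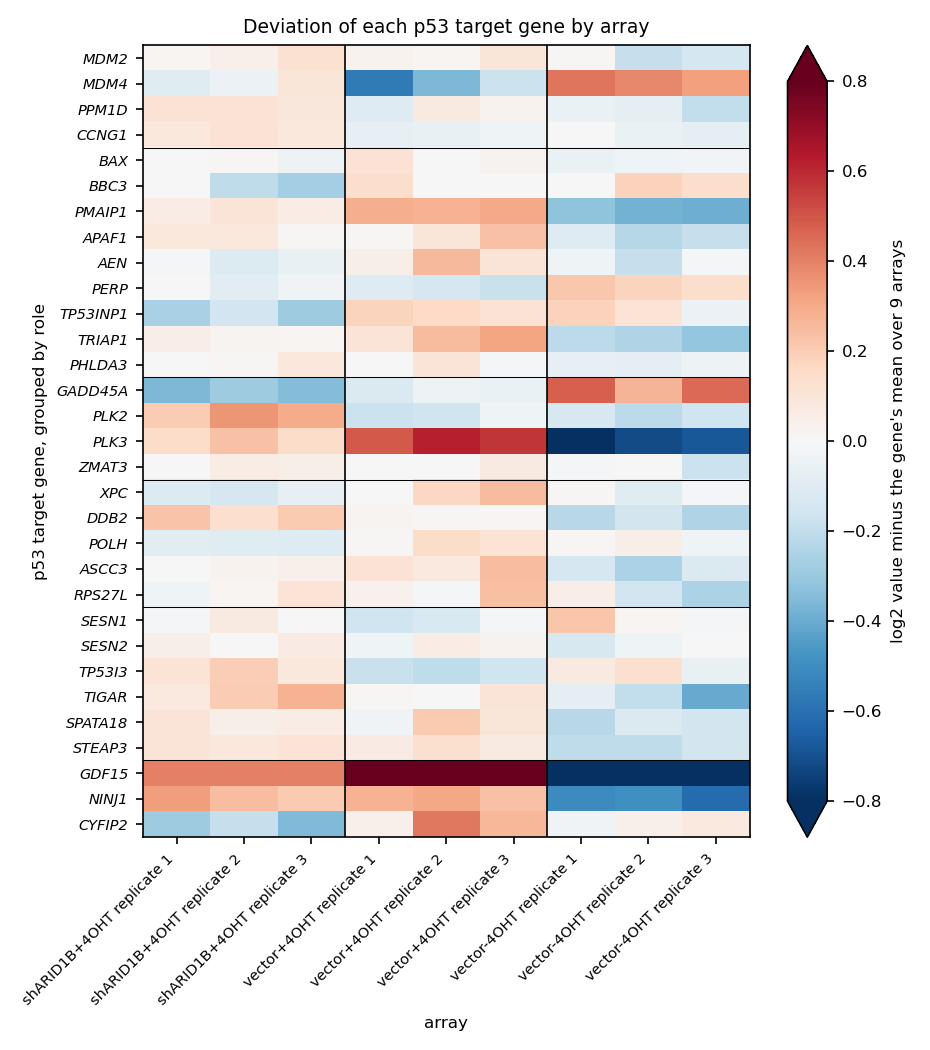
Deviation of each of the 31 p53 target genes (rows, grouped by role) from its own mean over the 9 arrays (columns), in log2 units, red above and blue below the mean, with colours capped at 0.8 in either direction. The replicates of a group look alike for GDF15, PLK3, PMAIP1 and NINJ1, while the vector+4OHT arrays differ among themselves for MDM4 (7.16, 7.37 and 7.55) and CYFIP2 (8.45, 8.83 and 8.67).

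The wider pathway was described from 3 further lists. Of 27 measured regulators of p53, 4 were higher and 0 lower with the hairpin, among them the ubiquitin ligase COP1 (0.38, adjusted p = 0.00754) and USP7, a deubiquitinase of MDM2 and p53 (0.26, adjusted p = 0.0123). Their median difference was -0.01, and the 14.8% called lay near the 15.7% of all genes. In senescence 4 were higher and 6 lower (37% called, against 32.6% of all genes). CDKN2A, which encodes the MDM2 inhibitor p14ARF as well as p16INK4a, read 9.67, 9.70 and 9.78 in shARID1B+4OHT, 9.88, 9.91 and 9.79 in vector+4OHT and 9.42, 9.31 and 9.38 in vector-4OHT cells. It was higher in senescence (0.49, adjusted p = 4.08e-05), and its difference with the hairpin did not pass (-0.14, adjusted p = 0.108). The probe set does not tell the transcripts of the locus apart.

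Of 48 other p53 targets measured, 21 were higher and 10 lower in senescence (64.6% called, against 32.6% of all genes), with a median of 0.06. With the hairpin 4 were higher and 6 lower (20.8% called, against 15.7%), with a median of 0.02. CDKN1A read 11.40, 11.33 and 11.26 in shARID1B+4OHT, 11.83, 11.86 and 11.73 in vector+4OHT and 11.11, 11.15 and 11.10 in vector-4OHT cells. The groups did not overlap. It was 1.61-fold higher in senescence (0.69, adjusted p = 3.99e-06), lower with the hairpin (-0.48, adjusted p = 0.000279) and still above vector-4OHT cells with it (0.21, adjusted p = 0.0146). E2F7, a repressor of E2F target genes, was 4.62-fold higher in senescence (2.21, adjusted p = 3.83e-10) and lower with the hairpin (-0.56, adjusted p = 8.48e-05). LIF, a cytokine, was higher in senescence by 1.53 (adjusted p = 7.52e-09) and differed by 0.16 with the hairpin (adjusted p = 0.0793). TNFAIP8, a regulator of cell death, ran the other way, lower in senescence by a difference of -1.33 (adjusted p = 3.29e-07) and higher with the hairpin by 0.52 (adjusted p = 0.00131). All 3 shARID1B+4OHT arrays held the same TNFAIP8 value (7.7828), as for GDF15, and the part of this in its calls was not tested.

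Cell cycle genes that p53 lowers through p21 were a list of 24. In senescence 19 were lower (79.2%, against 17.6% of all genes) and 0 higher, with a median of -0.69, and they included the mitotic kinase PLK1 (-1.48, adjusted p = 2.35e-08) and the spindle checkpoint kinase BUB1B (-1.68, adjusted p = 1.69e-07). With the hairpin 4 were higher and 1 lower (20.8% called, against 15.7% of all genes), with a median of -0.0019, and they included cyclin A2, CCNA2 (0.31, adjusted p = 0.0105), and the replication clamp PCNA (0.32, adjusted p = 0.00617). CDC20, the activator of the anaphase-promoting complex, was the one that was lower (-0.32, adjusted p = 0.0153). Against vector-4OHT cells, 19 of the 24 were lower in shARID1B+4OHT cells (79.2%, against 15.9% of all genes) and 1 was higher (4.17%, against 15.6%). The median was -0.75, against -0.03 over all genes.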

How the data were processed

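Total RNA of 9 samples was measured on Affymetrix whole-transcript arrays. The deposited values are log2 expression, 1 per probe set and array. The authors' processing notes name RMA, which corrects background, normalises by quantiles and summarises probes, together with oligo and limma. Versions and the genome build are not given in the sources used here. The labels' extraction text names an Illumina stranded kit, although their labelling text is for Affymetrix arrays. Quantile normalisation makes the arrays' distributions alike, so a shift shared by most genes would not be seen.

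Of 33297 probe sets, 19460 carried exactly 1 gene symbol in the platform annotation, 1754 several and 12083 none, and 19429 of the first were matched to RefSeq GRCh38.p14 by Entrez number for names. The brightest probe set was kept for 769 genes with several, which left 18417 genes, and each of the 31 p53 targets had 1. The model had group as its single term over all 9 arrays (lmFit and eBayes, limma 3.58.1, R 4.3.3), with 2-sided tests, a median residual SD of 0.0843 and 6 degrees of freedom left, which the prior raised to 10.45. With 3 arrays a group, an exact permutation p could not be under 0.1. Precision is limited by the number of arrays.

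The 33 genes, the further lists and the tests were chosen with earlier results of these data known. Array values were given, by rule, for the 4 largest called rises and 4 largest called falls of each comparison and for MDM2 (13 genes). From each further list up to 3 called genes a comparison with the smallest p could be named, besides ARID1B, CDKN1A and CDKN2A. In all, 15 alternatives were tried: a replicate block, a fit of only the 6 arrays under comparison, a filter on dim genes (fewer than 3 arrays above the median of all values), averaged probe sets, subtracted array medians, the methods' t-test and leaving out each of the 9 arrays.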

Additional observations from a re-analysis of the deposited data

How the results depend on the processing

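Of the 49 calls of p53 target genes over the 3 comparisons, 28 held in all 15 alternatives, 6 of 13 in shARID1B+4OHT against vector+4OHT cells, 11 of 16 in senescence and 11 of 20 in shARID1B+4OHT against vector-4OHT cells. In the first these were GDF15, PLK3, PMAIP1, TP53INP1, PLK2 and TP53I3. The count of targets called higher there was 3 with the replicate block, 3 with only the 6 arrays compared and 2 to 4 with 1 array left out, against 5 in the fit reported (2 without shARID1B+4OHT replicate 3 or vector+4OHT replicate 2, and 3 without vector+4OHT replicate 1 or 3 or shARID1B+4OHT replicate 1 or 2). The count called lower there was 5 with array medians subtracted, 5 with the methods' t-test and 5 to 9 with 1 array left out, against 8 (5 without shARID1B+4OHT replicate 3 or vector+4OHT replicate 2). All-gene calls there were 1446 with the methods' t-test and 1801 to 2817 with 1 array left out, against 2895, the 1801 without shARID1B+4OHT replicate 2. In senescence the methods' t-test called 3738 genes, against 5996. Against vector-4OHT cells, targets called higher numbered 9 to 14 with 1 array left out, the 9 without shARID1B+4OHT replicate 1. The p53 consensus was found in 1 of the 29 genes with at most 1 mismatch and in 10 with at most 3. The cause of these changes was not tested, except that leaving out arrays leaves fewer samples. With the methods' t-test CYFIP2 with the hairpin (adjusted p = 0.0967), APAF1, SPATA18 and TP53I3 in senescence (adjusted p = 0.079, 0.0984 and 0.0678) and TIGAR and TP53INP1 against vector-4OHT cells (adjusted p = 0.074 and 0.0604) lost their calls, which held in every other alternative tried. That t-test also ended calls that other alternatives ended. With the hairpin these were MDM4, XPC and POLH (adjusted p = 0.211, 0.171 and 0.0921). In senescence they were AEN and TIGAR (adjusted p = 0.183 and 0.173), and against vector-4OHT cells BBC3 and ASCC3 (adjusted p = 0.145 and 0.0528). Differences that changed sign were all uncalled and near 0. With array medians subtracted they were those of PHLDA3 (0.025), SPATA18 (0.00093) and NINJ1 (0.017) with the hairpin, CCNG1 in senescence (0.025) and SESN1 against vector-4OHT cells (0.0083). With 1 array left out they were, with the hairpin, those of MDM2 (-0.019 to 0.037), APAF1 (-0.11 to 0.0046), PHLDA3 (-0.027 to 0.036), ZMAT3 (-3.17e-05 to 0.036), RPS27L (-0.11 to 0.021), SESN2 (-0.0057 to 0.041), SPATA18 (-0.084 to 0.033), STEAP3 (-0.0013 to 0.028) and NINJ1 (-0.043 to 0.018), in senescence that of CCNG1 (-0.026 to 0.0096), and against vector-4OHT cells those of AEN (-0.037 to 0.051) and SESN1 (-0.10 to 0.021). The labels number the replicates alike in each group, and with 3 arrays a group it cannot be settled whether the numbers pair the samples. Correlations of deviations from the group means ran between -0.264 and 0.322 for the 9 same-numbered pairs, of which 1 was over 0.1. For the 18 others they ran between -0.331 and 0.337. Between vector+4OHT and shARID1B+4OHT arrays they were 0.322, 0.0787 and 0.0711 for the same numbers and -0.321 to 0.267 for different ones. With the replicate block the all-gene calls were 2498, 5658 and 5437 in the order of the comparisons above, against 2895, 5996 and 5800, and the targets called were 3 higher and 7 lower, 10 higher and 4 lower, and 13 higher and 6 lower. The calls lost with the replicate block were those of CCNG1, DDB2 and POLH with the hairpin (adjusted p = 0.104, 0.0696 and 0.0614), AEN and TIGAR in senescence (adjusted p = 0.0654 and 0.0599) and CCNG1 against vector-4OHT cells (adjusted p = 0.0813). Those lost with only the 6 arrays compared were MDM4, CCNG1, XPC and POLH with the hairpin (adjusted p of 0.0517 to 0.0632) and AEN and TIGAR in senescence (adjusted p = 0.0771 and 0.0563).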
